A study of Mus musculus with 2 samples.

Results

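Fatty acid binding proteins are small cytosolic proteins that hold a fatty acid, a bile acid or another lipid inside a barrel and carry it between the membranes and enzymes of the cell. Each member of the family has its own tissues. Fabp1 and Fabp2 serve the enterocytes that absorb dietary fat, Fabp6 carries bile acids in the ileum, Fabp3 belongs to heart and skeletal muscle, Fabp4 to adipocytes, macrophages and capillary endothelium, and Fabp5 to the epidermis and several other cell types. The 6 genes Fabp1 to Fabp6 were taken by their symbols from the 40879 gene symbols counted in mouse intestine. They were chosen by name around Fabp2, whose difference between the libraries was already known, so all values of this contrast are given as a description and no test is applied to them.

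The study compared WT mice with mice carrying 1 disrupted copy of Erap1 (ERAP1+/-, labelled as hetero type), the gene of an aminopeptidase of the endoplasmic reticulum that trims peptides for antigen presentation. The ERAP1+/- line came from a single clone of embryonic stem cells with the tm1a allele, which was crossed to a Cre strain that the methods do not name, on a C57BL/6 background, so that a pair of internal exons was removed. Both groups are given as 8 weeks old, which in the paper is the age at assignment to the experiment. The paper describes this comparison as one under steady-state conditions. Its control mice received regular water without dextran sulfate sodium or sulfasalazine, and whether the pooled mice were these controls is not stated. For each genotype RNA was pooled from 3 mice and sequenced as 1 library from the 3′ ends of polyadenylated transcripts.

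There were 8114826 counted reads for WT and 8907515 for ERAP1+/-. After scaling with the trimmed mean of M values (TMM), 1 read corresponded to 0.129 CPM and 0.107 CPM, where CPM is the read count scaled to a common library size. The reads of Erap1 numbered 229 for WT and 2 for ERAP1+/-, or 0.73% of the WT level, which goes against a heterozygous label. The tags lie downstream of the removed exons and do not check the deletion itself. The second library is therefore called the library labelled ERAP1+/- below. With 1 library per genotype no difference has a replicate check, and all intervals are 95% intervals of counting error only. The labels name the tissue as intestine and give no segment, while the paper's abstract speaks of colonic tissues. All 10 intestinal epithelium markers passed the level of 4 on the log2(CPM + 1) scale, with Lgals4, a lectin of gut epithelium, at 2954 CPM (WT) and 2940 CPM. Of the 16 genes of the small intestine brush border list, 9 had at least 10 reads over both libraries. Mgam, the most abundant of them, was at 172 CPM (WT) and 143 CPM. Sis, Slc2a2, Gata4 and Reg1 had no read in both libraries. The WT library also held the RNA of keratinocyte, sebaceous gland and striated muscle genes, whose values stand beside Fabp5 and Fabp3.

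Across all genes, 8013 had a log2(CPM + 1) of 4 or more in at least 1 library. Of these, 428 (5.34%) differed more than 2-fold, 111 (1.39%) being higher and 317 (3.96%) lower in the library labelled ERAP1+/-. With total counts in place of TMM the median of all genes moved by 0.122 on the log2 scale, and the lower genes made up 59.9% (248 lower, 166 higher) in place of 74.1%. Of the 6 Fabp genes, 3 reached that level, 1 of them being more than 2-fold higher (Fabp2) and 1 more than 2-fold lower (Fabp5). The third, Fabp4, stayed under 2-fold. These genes were chosen with this contrast known, and nothing is read from their share beside the background.

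All 6 genes have 4 exons and coding sequences of similar length, between 381 bp for Fabp1 and 405 bp for Fabp5. In the GENCODE M21 annotation of GRCm38, Fabp2 covers chromosome 3 from 122895072 to 122899506 (plus strand) and Fabp1 chromosome 6 from 71199827 to 71205023 (plus strand). Fabp6 covers chromosome 11 from 43596049 to 43601540 (minus strand) and Fabp3 chromosome 4 from 130308595 to 130315463 (plus strand). Fabp5 and Fabp4 lie 187 kb apart at one end of chromosome 3. Fabp5 runs from 10012548 to 10016607 on the plus strand and Fabp4 from 10204088 to 10208576 on the minus strand. The coding sequences were most alike for Fabp3 and Fabp4 (65.7% identical bases over the aligned columns) and for Fabp4 and Fabp5 (61.6%). Fabp2 shared between 48.8% and 53.5% of the bases with each of the other 5. No stretch of 75 bases, the read length, in the last 500 bases of Fabp1, Fabp2, Fabp4, Fabp5 or Fabp6 occurred in the transcripts of another gene. For Fabp3, 82 of 426 such stretches (19.2%) also occurred in the pseudogene Fabp3-ps1.

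Fabp1 and Fabp2 are classical genes of the absorbing enterocyte, and the sequences before their starts are shown because Fabp2 was found in both libraries and Fabp1 hardly at all. RefSeq promoter entries on GRCm38.p6 were at hand for 4 of the 6 genes, Fabp1, Fabp2, Fabp3 and Fabp6. The stretch of Fabp2 covers chr3:122894822-122895071 and that of Fabp1 chr6:71199629-71199826, both on the plus strand and printed 5′ to 3′. Capitals mark the letters of a direct repeat whose copies are 1 base apart (DR1), the kind of element that nuclear receptors such as HNF4A and PPAR with RXR bind, searched as AGNNCANAGNNCA on both strands.

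Fabp2: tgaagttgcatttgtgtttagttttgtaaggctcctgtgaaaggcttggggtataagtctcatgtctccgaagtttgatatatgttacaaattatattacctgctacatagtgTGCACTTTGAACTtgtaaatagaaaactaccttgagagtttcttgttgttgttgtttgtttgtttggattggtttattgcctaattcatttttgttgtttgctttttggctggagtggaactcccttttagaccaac

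Fabp1: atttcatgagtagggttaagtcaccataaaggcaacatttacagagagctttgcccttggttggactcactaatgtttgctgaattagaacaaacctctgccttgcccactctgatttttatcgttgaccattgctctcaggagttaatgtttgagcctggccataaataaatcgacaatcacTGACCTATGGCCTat

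The match in Fabp2 began at -137 from its start, which is the same in RefSeq and GENCODE, and read TGCACTTTGAACT, the minus strand of the repeat. The start of Fabp1 in RefSeq lies 52 bases downstream of the one in GENCODE, at which the printed stretch ends. The match in Fabp1, also on the minus strand, read TGACCTATGGCCT and began at -67 from the RefSeq start and at -15 from the GENCODE start. Such letters occurred in 2.78% of 32851 RefSeq promoter windows of 300 bases. The windows of Fabp3 and Fabp6 held no match. A TATA box, searched with the letters TATAAA on both strands, was found at -30 from the RefSeq start in Fabp1, past the printed stretch, and on the minus strand at -29 from the RefSeq start in Fabp6, against 13.6% of all windows, and not in Fabp2 or Fabp3. A match describes the letters only, and binding was not measured in this series.

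Fabp2, the intestinal fatty acid binding protein, was read 56 times in the WT library and 299 times in the library labelled ERAP1+/-. These counts correspond to 7.21 CPM (5.44 to 9.36) and 32.1 CPM (28.6 to 36.0). The level was 4.46 times higher in the library labelled ERAP1+/- (3.34 to 6.04), a difference of 2.01 on the log2(CPM + 1) scale, and only 15 of the genes past the level had a larger one. In a bulk library, fewer cells of a type and less RNA per cell cannot be told apart, which holds for every gene below. The intervals of the 2 levels did not overlap.

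Fabp1, the liver type that proximal enterocytes also make, had 1 read in WT and none in the other library. Both lie under the floor of 3 reads, 0.386 CPM for WT and 0.322 CPM for the other library, so no fold is given. Fabp1 was not detectable at this depth in either library, in the same libraries in which Fabp2 had 56 and 299 reads.

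Fabp6, the ileal bile acid binding protein, had 66 and 77 reads. Its level was 8.49 CPM (6.57 to 10.8) in WT against 8.28 CPM (6.53 to 10.3). The ratio was 0.975 (0.692 to 1.38) with TMM and 1.06 with total counts, so that its sign depended on the scaling and its interval held 1. Fabp6 was found at a similar level in both libraries, and the interval still allows a level up to 1.44-fold lower or 1.38-fold higher.

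Fabp4, the fatty acid binding protein of adipocytes, had 435 and 887 reads. Its level went from 56.0 CPM (50.8 to 61.5) in WT to 95.4 CPM (89.2 to 102), a ratio of 1.7 (1.52 to 1.91). The log2 difference of 0.76 stayed under 2-fold, and 232 genes past the level had a larger one. Fabp4 was the most abundant of the 6 genes in the library labelled ERAP1+/-.

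Fabp5, the epidermal fatty acid binding protein, was read 1278 times in WT and 111 times in the library labelled ERAP1+/-. Its level was 164 CPM (156 to 174) and 11.9 CPM (9.82 to 14.4), which is 13.8-fold lower (11.3 to 16.9) in the library labelled ERAP1+/-. The log2 difference was -3.68, and 111 genes past the level had a lower one. Fabp5 passed that level only through the WT library, so this rank too is a description. Fabp5 was the most abundant of the 6 genes in the WT library, at 164 CPM against 56.0 CPM for Fabp4.

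Fabp3, the heart and muscle type, had 38 and 14 reads, which correspond to 4.89 CPM (3.46 to 6.71) and 1.5 CPM (0.823 to 2.53). Its level was 3.25-fold lower in the library labelled ERAP1+/- (1.72 to 6.49), but both values were under the level of 4 on the log2 scale and the gene was not counted as changed. The last exon of Fabp3 overlaps that of Zcchc17 on the opposite strand by 81 bp, and Zcchc17 had 369 and 503 reads. Whether the counting used the strand is not stated, so a part of the Fabp3 reads may belong to Zcchc17 or to Fabp3-ps1.

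**Figure D1:**
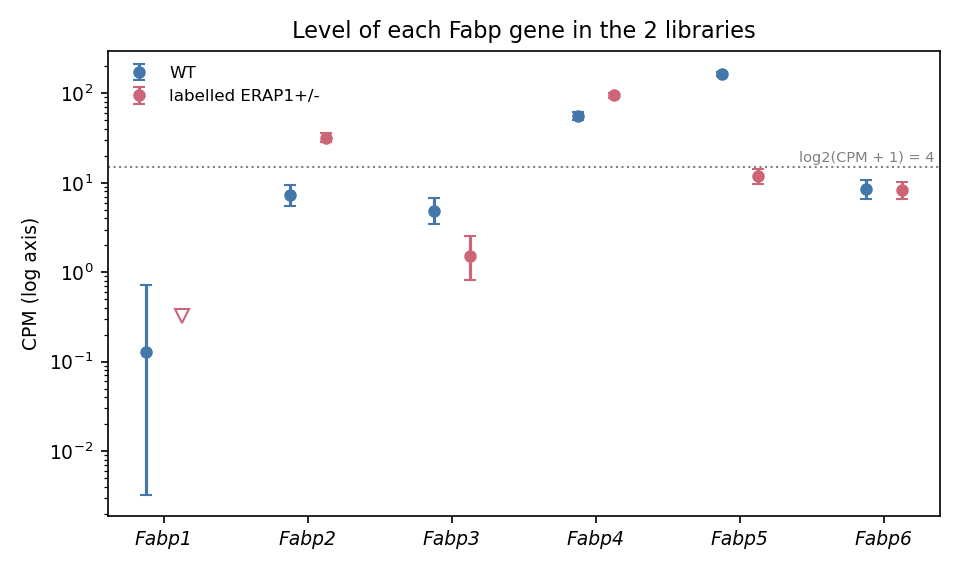
Level of each Fabp gene in CPM on a log axis, with WT in blue and the library labelled ERAP1+/- in red, 1 library each; bars are 95% Poisson intervals and the open triangle marks the 0.322 CPM floor for Fabp1, which had no read. The intervals of the 2 libraries lie apart for Fabp2, Fabp3, Fabp4 and Fabp5 and overlap for Fabp6, and the dotted line marks the level of 4 on the log2(CPM + 1) scale.

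Because 1 tag is read per transcript, these levels do not grow with transcript length and can be ordered within a library. In the WT library the order was Fabp5, Fabp4, Fabp6, Fabp2, Fabp3 and Fabp1. There the intervals of Fabp6, Fabp2 and Fabp3 overlapped one another, while Fabp5, Fabp4 and Fabp1 each stood apart. In the library labelled ERAP1+/- the order was Fabp4, Fabp2, Fabp5, Fabp6, Fabp3 and Fabp1. The intervals of Fabp5 and Fabp6 overlapped there, and those of Fabp4, Fabp2 and Fabp3 did not overlap any other. Fabp2 thus stood behind Fabp5, Fabp4 and Fabp6 in WT and behind Fabp4 alone in the other library.

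**Figure D2:**
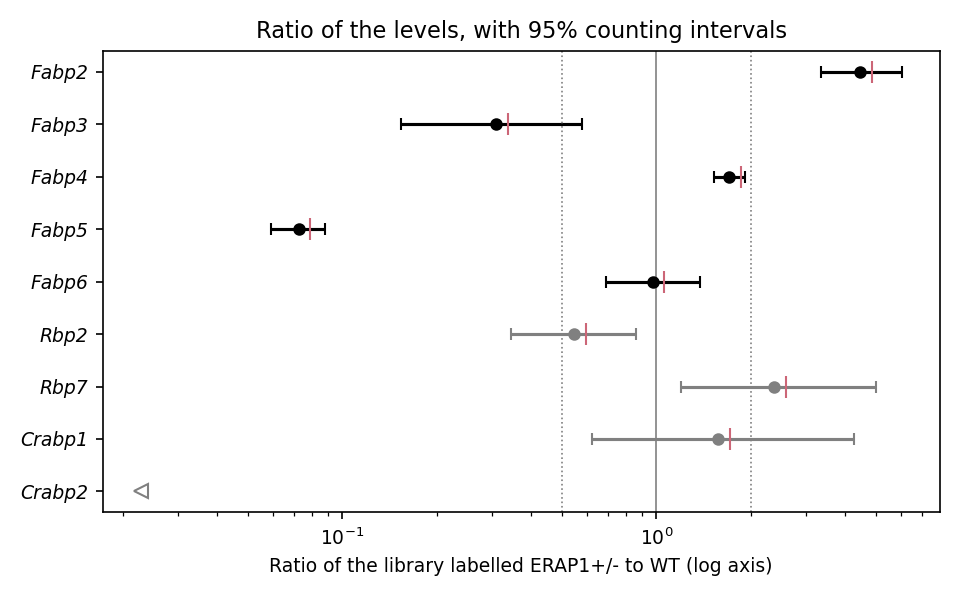
Ratio of the level in the library labelled ERAP1+/- to that in the WT library on a log axis, with 95% counting intervals, for the Fabp genes (black) and 4 other intracellular lipid binding proteins (grey); red ticks are the ratios with total counts, dotted lines mark 2-fold, and the open triangle marks Crabp2 against the floor. Fabp2 lies at 4.46, Fabp4 at 1.7, Fabp6 at 0.975, Fabp3 at 0.308 and Fabp5 at 0.0726.

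The composition of the Fabp reads differed between the libraries, a measure that does not depend on scaling. Of 1874 Fabp reads in the WT library, Fabp5 took 68.2% (exact Clopper-Pearson interval 66 to 70.3), Fabp4 23.2% (21.3 to 25.2) and Fabp2 2.99% (2.27 to 3.86). Of 1388 in the library labelled ERAP1+/-, Fabp4 took 63.9% (61.3 to 66.4), Fabp2 21.5% (19.4 to 23.8) and Fabp5 8% (6.62 to 9.55). Fabp6 made up 3.52% and 5.55% and Fabp3 2.03% and 1.01%. Fabp1 made up 0.0534% in the WT library and 0 of 1388 reads in the other, where the interval reached up to 0.265%. The 6 genes together had 241 CPM and 149 CPM, a ratio of 0.619 (0.577 to 0.664). Without Fabp5, the remaining 5 had 76.7 CPM and 137 CPM, a ratio of 1.79 (1.62 to 1.98), so the direction of the sum turned on Fabp5.

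**Figure D3:**
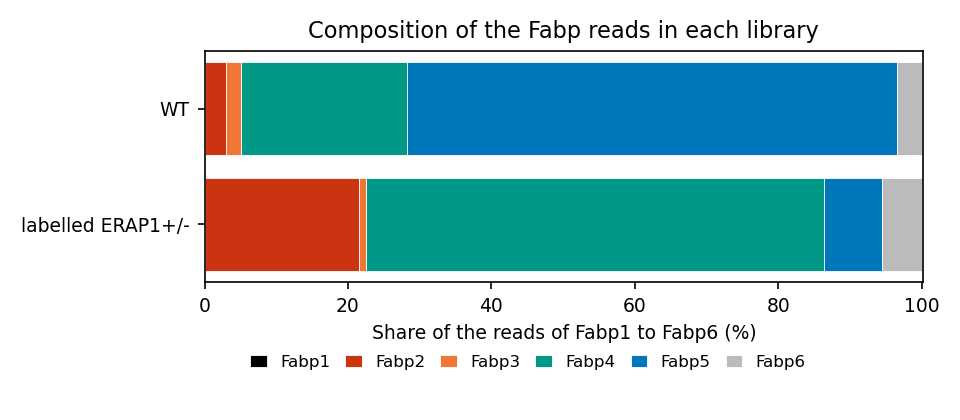
Share of each gene among the reads of Fabp1 to Fabp6 in percent, 1 bar per library. Fabp5 fills 68.2% of the WT bar and 8% of the bar of the library labelled ERAP1+/-, while Fabp4 goes from 23.2% to 63.9% and Fabp2 from 2.99% to 21.5%.

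The ratio of 2 members within each library was compared between the libraries for the 10 pairs of the 5 genes with at least 10 reads. For Fabp2 against Fabp5 the ratio was 61.5 times higher in the library labelled ERAP1+/- (exact conditional interval 43.0 to 88.4), the widest gap of the 10. Fabp4 against Fabp5 was 23.5 times higher (18.6 to 29.7), and Fabp2 against Fabp3 14.5 times (7.06 to 30.7). Among Fabp2, Fabp4 and Fabp6, Fabp2 was higher relative to Fabp6 by a factor of 4.58 (2.89 to 7.24) and relative to Fabp4 by 2.62 (1.91 to 3.63). Fabp4 was higher relative to Fabp6 by 1.75 (1.21 to 2.51). Fabp5 against Fabp6 was 0.0745 times the WT ratio (0.0500 to 0.111), and Fabp3 against Fabp5 4.24 times (2.05 to 8.29). The interval of each of the 10 ratios left out 1, so no pair of members kept its WT proportion within counting error.

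Fabp5 and Fabp4 are neighbors in a cluster of 5 family genes on chromosome 3, which spans 289 kb from 10012548 to 10301183. Pmp2 and Fabp9, a myelin protein and a testis form, lie between them and had no read in both libraries. Fabp12, at the far end, had 1 read in each. The 2 expressed genes of the cluster thus differed in opposite directions, Fabp5 by -3.68 and Fabp4 by 0.76 on the log2 scale. Fabp2 is on the same chromosome, outside the cluster.

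Of the other 9 genes for intracellular lipid binding proteins, 5 had at least 10 reads over both libraries. Only 1 of these reached the level of 4, so the rest could not be counted as changed, and none was. Their median log2 difference was -0.72, against -0.03 for all genes past the level and 0.00 for the 16142 genes with at least 10 reads. With all listed genes of at least 1 read the median was -0.08, so it rests on the filter. Fabp7, the brain form, had 4 reads in each library. Rbp2, which carries retinol in enterocytes, had 52 and 34 reads (ratio 0.546, 0.344 to 0.858), the opposite direction to Fabp2. Rbp7 had 12 and 34 reads (2.37, 1.2 to 5.02), and Crabp1 had 8 and 15 (1.57, 0.623 to 4.27), an interval that holds 1. Crabp2, a retinoic acid binding protein found in epidermis, had 110 reads in WT and none in the other library. Set at the floor of 3 reads it was 43.9-fold lower, a value that leaves out the counting error of the WT reads.

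The keratinocyte and sebaceous gland lists differed in the same direction as Fabp5. All 14 keratinocyte markers were lower in the library labelled ERAP1+/-, 11 of them by more than 2-fold past the level, with a median log2 difference of -3.79. Their summed level was 2677 CPM in WT against 40.1 CPM, 66.8-fold lower (60.3 to 74.2), and Ivl, Trp63 and Dsc3 had no read in the latter. Flg, the filaggrin of the outer epidermis and the most abundant of the list, had 7952 and 4 reads, Krtdap 3681 and 15, the cornified envelope gene Lor 1528 and 5, and Krt1 1049 and 6. All 8 sebaceous gland markers were lower, 4 of them by more than 2-fold past the level, with a median of -3.52 (-3.32 with genes at 0 set to the floor) and a summed level of 272 CPM and 4.51 CPM. Among them Scd3, a fatty acid desaturase and the most abundant, had 881 and 1 reads, Krt79 616 and 13, the wax synthase Awat1 182 and 0, and Far2 274 and 26. Awat1, Elovl3 and Dgat2l6 had no read in the library labelled ERAP1+/-. The Fabp5 level differed less (13.8-fold) than the summed level of either list, and the part of these cells in the Fabp5 result was not tested.

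The striated muscle list differed in the same direction as Fabp3. Of its 17 genes with at least 10 reads, 16 were lower in the library labelled ERAP1+/-, 11 of them by more than 2-fold past the level, with a median log2 difference of -4.28. The summed level was 1158 CPM in WT against 250 CPM, 4.64-fold lower (4.43 to 4.86). The fast myosin gene Myh1 had 909 and 1 reads, and the troponin and light chain genes Tnnt3, Tnnc2 and Mylpf had 1113 and 13, 898 and 11, and 618 and 7. Atp2a1 and Casq1 had no read in the library labelled ERAP1+/-, and Myh7, the slow myosin shared with the heart, had none in both. Cox7a1, a cytochrome oxidase subunit and the most abundant of the list over both libraries, had 964 and 1381 reads and was not lower. With it at 124 CPM and 148 CPM and Tnni1, a slow troponin gene, at 91.8 CPM and 71.9 CPM, these 2 genes held most of the summed level left in the library labelled ERAP1+/-. The part of muscle RNA in the Fabp3 result was not tested.

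Beside Fabp4, adipocyte, endothelial and macrophage lists were read. Of 13 adipocyte markers, 8 were higher and 5 lower, with a median log2 difference of 0.35 in a range from -1.07 to 1.47. Cfd, the complement factor adipsin, was the 1 gene past both 2-fold and the level, with 163 and 558 reads (ratio 2.86, 2.40 to 3.43). Under the level, the adiponectin gene Adipoq had 34 and 124 reads (3.05, 2.07 to 4.59), Acvr1c 38 and 138 (3.03, 2.10 to 4.47), Adrb3 21 and 57 (2.27, 1.35 to 3.94) and Plin1 5 and 15 (2.51, 0.866 to 8.81). Retn, the resistin gene, had 61 and 30 reads (0.411, 0.256 to 0.646), and Car3, the most abundant, had 446 and 352 reads (0.659, 0.572 to 0.760). Their summed level was 152 CPM and 191 CPM, a ratio of 1.26 (1.17 to 1.36), and no marker was at 0. The 13 endothelial markers had a median of 0.12 and a summed ratio of 1.11 (1.04 to 1.19), none past 2-fold, with the VEGF receptor Kdr most abundant at 272 and 412 reads. The 11 macrophage markers with at least 10 reads had a median of 0.12 and a summed ratio of 1.2 (1.14 to 1.27), none past 2-fold, with C1qa most abundant at 352 and 493 reads. Of these, 6 were higher and 5 lower, in a range from -0.17 to 0.75. Cx3cr1 (1.71, 1.41 to 2.09) and Lyz2 (1.69, 1.38 to 2.08) had ratios close to that of Fabp4. The Fabp4 ratio of 1.7 lay above all 3 summed ratios. Among the 13 adipocyte markers it lay below those of Cfd, Adipoq, Acvr1c, Adrb3, Plin1 and Cidec. It lay above those of Lipe, Pde3b and the 5 lower markers. The part of these cell types in it was not tested.

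Beside Fabp2, the genes of fat absorption and chylomicron assembly, which act on the same lipids, had no gene more than 2-fold higher past the level. Of 17 with at least 10 reads, 5 were higher and 12 lower, with a median log2 difference of -0.11 (0.01 with total counts). The sterol exporter gene Abcg5 was the 1 gene past both 2-fold and the level of 4, with 180 and 82 reads, 2.63-fold lower (2.01 to 3.46). Its partner Abcg8, under that level, had 69 and 6 reads and was 13.8-fold lower (6.01 to 38.8). Also under it but higher, Slc27a2 had 2 and 13 reads (ratio 5.43, 1.23 to 49.6) and Pla2g12b 1 and 9 (7.52, 1.04 to 330). Acsl3, which activates fatty acids, was the most abundant at 3524 and 3367 reads (0.798, 0.761 to 0.837). Apoa4, Apoc2 and Npc1l1 had no read in both libraries. The summed level of the list was 947 CPM in WT against 797 CPM, beside a Fabp2 level that was 4.46 times higher. Acsl3 alone held 454 CPM and 362 CPM of it.

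In the brush border list of the small intestine, of 9 genes with at least 10 reads, 2 were higher and 7 lower, with a median log2 difference of -0.27 and a summed level of 471 CPM and 342 CPM. The peptide transporter gene Slc15a1 had 744 and 354 reads and was 2.52-fold lower (2.21 to 2.86). Under the level of 4, the fructose transporter gene Slc2a5 had 9 and 31 reads (ratio 2.88, 1.34 to 6.87) and Clca4b 57 and 16, 4.26-fold lower (2.42 to 7.96). Mgam, a maltase and the most abundant, had 1335 and 1332 reads, a ratio of 0.833 (0.772 to 0.9). Beside Fabp6, the 5 measured genes of ileal bile acid handling had a median of 0.23, 4 being higher and 1 lower. Their summed ratio was 0.97 (0.860 to 1.09), against 0.975 for Fabp6. None of them passed 2-fold. Nr1h4, the bile acid receptor FXR, was the most abundant and the only lower one, with 212 and 156 reads (ratio 0.615, 0.497 to 0.759). Slc51a, Fgf15 and Nr0b2 had no read in both libraries.

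PPAR receptors are activated by fatty acids and drive several Fabp genes in other tissues. Of 14 genes of the PPAR receptor and target list, 7 were higher and 7 lower, with a median log2 difference of 0.01 and a summed ratio of 0.997 (0.966 to 1.03). Acadl, of mitochondrial fatty acid oxidation and the most abundant, had 1157 and 1355 reads. The targets Cyp4a10 and Cyp4a14 had no read in both libraries. Among 12 intestinal transcription factors the median was 0.10. Foxa2 was past 2-fold, with 425 and 1038 reads (2.04, 1.82 to 2.29), and Klf5, the most abundant, had 8214 and 10392 reads.

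Among the 10 epithelium markers, Muc2, the goblet cell mucin, was past 2-fold with 12020 and 32939 reads (ratio 2.29, 2.24 to 2.34), and the median log2 difference was -0.32. The summed epithelial level was 11556 CPM and 11900 CPM, a ratio of 1.03 (1.02 to 1.04), against 4.46 for Fabp2. That sum held Muc2, which went from 1547 CPM to 3541 CPM, while 8 of the 10 markers were lower. The 12 surface colonocyte markers had a median of -0.15 and a summed ratio of 0.738 (0.73 to 0.746), 5 being higher and 7 lower. Krt20 (5156 and 2674 reads) and the carbonic anhydrase gene Car4 (15163 and 8391 reads) were more than 2-fold lower. With total counts the Car4 ratio was 0.504 in place of 0.462 and no longer past 2-fold. The sodium-proton exchanger gene Slc9a3, under the level of 4 in both libraries, had 7 and 60 reads (7.16, 3.27 to 18.6) and the highest log2 difference of the list, 1.97, beside 2.01 for Fabp2. Saa1, the most abundant of them, had 12924 and 14631 reads. The part of the epithelial makeup in the Fabp2 result was not tested.

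**Figure D4:**
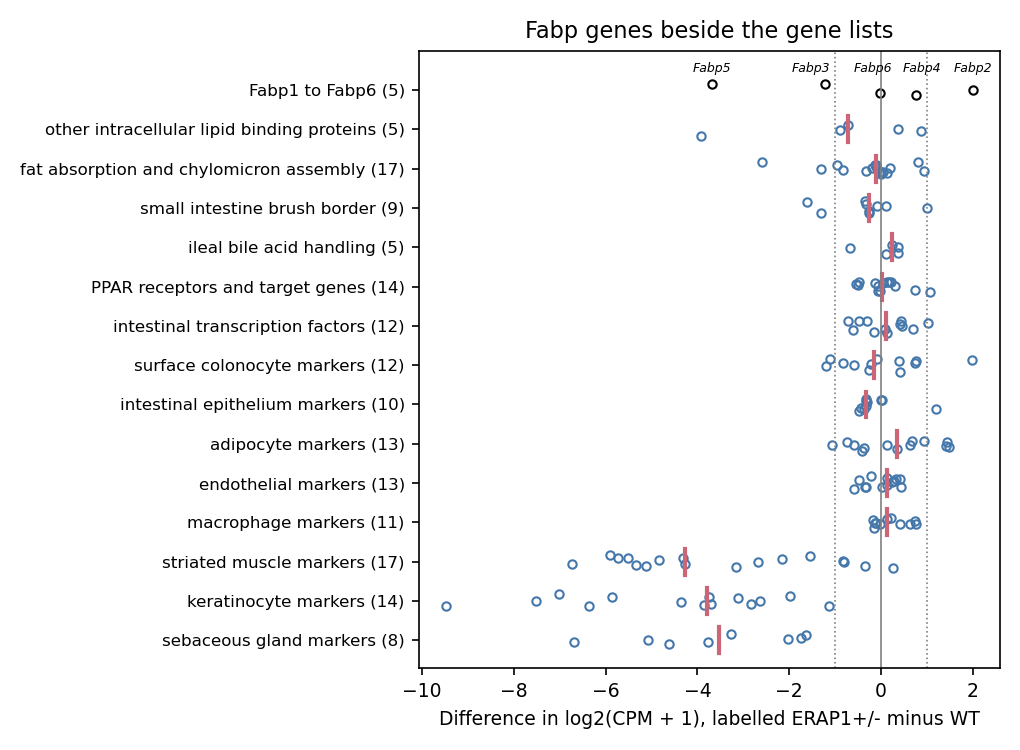
Differences in log2(CPM + 1), the library labelled ERAP1+/- minus WT, for the 5 Fabp genes with at least 10 reads (top row) and for each gene list, 1 point per gene with the number of genes in brackets; red bars are list medians and dotted lines mark 2-fold. Keratinocyte, sebaceous gland and striated muscle genes reach down to -9.48 on the side of Fabp5, while the fat absorption list is centered at -0.11 and Fabp2 lies at 2.01.

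The genes nearest to Fabp2 in level were ranked over the 2 libraries by Euclidean distance of log2(CPM + 1) among 8012 genes, so the likeness rests on 2 points. The nearest was Btnl1, a butyrophilin-like gene of the gut epithelium, at a distance of 0.15 with 57 and 268 reads. It was followed by the immunoglobulin light chain gene Iglc1 (0.26), Ddah1, whose enzyme degrades methylated arginines (0.30), the short-chain fatty acid receptor gene Ffar2 (0.34) and the deacetylase gene Aadac (0.41). Iglc1 reads may be shared with near-identical copies.

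**Figure D5:**
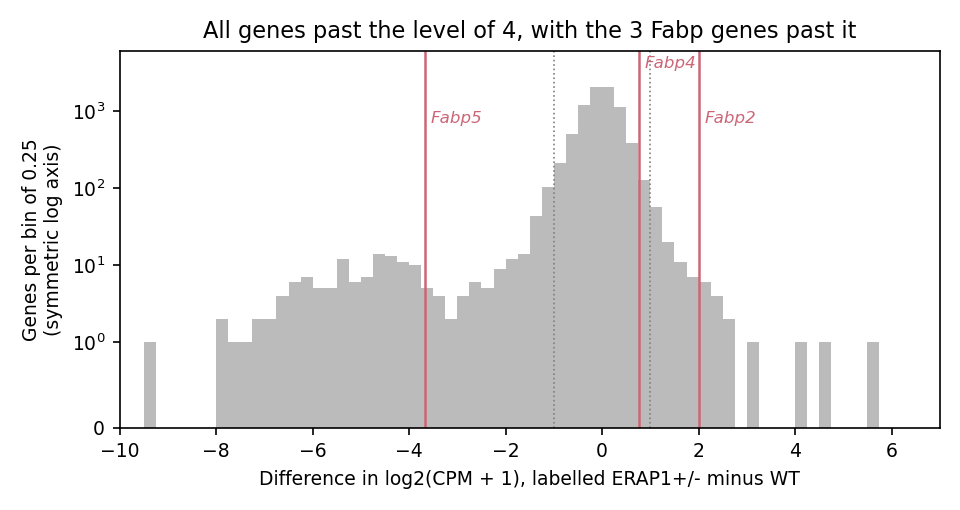
Histogram of the difference in log2(CPM + 1) for the 8013 genes past the level, with the number of genes per bin of 0.25 on a symmetric log axis and red lines at the 3 Fabp genes past it. Fabp4 lies at 0.76 inside the 2-fold lines (dotted), Fabp2 at 2.01 on the upper side with 15 genes beyond it, and Fabp5 at -3.68 on the lower side with 111 genes beyond it. Fabp2 and Fabp5 each passed the level only through the library where they are higher.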

How the data were processed

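RNA of mouse intestine was sequenced with a 3′ tag method as 1 library per genotype, each pooled from 3 mice. The authors deposited raw counts of reads for each gene symbol, not normalized. Their methods name STAR with HTSeq-count and, elsewhere, Bowtie2 with RSEM, and which of these made the counts is not stated. Per the labels the build is GRCm38.

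TMM factors (0.958 for WT, 1.04 for ERAP1+/-) come from edgeR 4.0.16 (R 4.3.3), and the adjusted totals gave CPM and log2(CPM + 1). A gene was counted as changed past 2-fold on that scale with a value of at least 4 in 1 or both libraries. With 1 library per group no test could be fitted. Exact 95% intervals (conditional binomial, Poisson, Clopper-Pearson, Fisher's conditional odds ratio, scipy 1.17.1) cover counting error only, PCR duplicates included as reads, and would be too narrow for differences between mice. For the level of a gene without reads, 3 reads were taken as the upper limit.

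The 6 genes and the 14 gene lists were chosen with earlier results of these data known. List genes needed at least 10 reads over both libraries for the median and the direction counts, and summed levels cover every gene of a list. Named were the 6 genes, the other lipid binding proteins, in each list the genes past 2-fold (the 4 largest differences where more passed) and the most abundant gene, the 5 genes nearest to Fabp2, and Erap1. Some genes that this rule takes are not reported here. Genes named at 0 reads were added after the values were seen. So were Abcg8, Slc27a2, Pla2g12b, Adipoq, Acvr1c, Adrb3, Plin1, Cidec, Lipe, Pde3b, Retn, Cx3cr1, Lyz2, Slc2a5, Clca4b, Slc9a3 and Tnni1. Loci came from GENCODE M21 on GRCm38 and promoters from RefSeq. The scripts were tested on simulated data. Alternatives were other scalings, a pseudocount of 0.1, other filters, a 4-fold threshold, thinning to equal depth, and leaving reads out of the library size.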

Additional observations from a re-analysis of the deposited data

How the results depend on the processing

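No paired analysis was possible because there is 1 library for each genotype, and for the same reason no replicate could be left out. The log2 differences of Fabp2 (2.01 to 2.14 over the reported value and 6 alternatives), Fabp3 (-1.64 to -1.14), Fabp4 (0.76 to 0.88) and Fabp5 (-3.77 to -3.56) kept their direction, while that of Fabp6 ran from -0.04 to 0.08. Changed genes numbered 160 with a level of at least 6, 1434 with no filter on low values, 1390 with at least 10 reads in 1 library and 160 at a 4-fold threshold, which follows from the number of genes admitted or the threshold itself. With a level of at least 6, 1 Fabp gene, Fabp5, was changed, since Fabp2 falls under that level. With no filter or with at least 10 reads, 3 were, as Fabp3 was added. With total counts the median of the colonocyte list was -0.02 and that of the epithelium list -0.19, and with a pseudocount of 0.1 that of the keratinocyte list was -5.47. The other 92 recomputed list medians moved by less than the typical counting interval of their genes to either side. That of fat absorption turned from -0.11 to 0.01 with total counts. That of the other lipid binding proteins went from -0.72 to -0.08 when genes with at least 1 read were taken. Among these 92, the sebaceous gland median still went from -3.52 to -5.36 with a pseudocount of 0.1. The counting intervals of its genes are wide, many having 1 read or none in the library labelled ERAP1+/-. The keratinocyte, sebaceous gland and striated muscle medians were not run without their own reads. Depth leaves Fabp1 undetermined and gives Fabp3 a wide interval.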
